A study of Mus musculus with 9 samples.

Results

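The adhesion genes described here are the 8 mouse genes *Cdh1*, *Cdh2*, *Ctnnb1*, *Ctnna1*, *Ctnnd1*, *Jup*, *Tjp1* and *Cadm1*, chosen by symbol from a table of RNA sequencing (RNA-seq) values of whole embryonic lenses. Each symbol was found once, so that all 8 genes of 8 asked for were measured, among 15820 entries with a symbol and 22013 entries in all. The lenses were at embryonic day E16.5 and came from germline knockout mice, for which the study states an ICR background unless otherwise mentioned. Control embryos were heterozygous for both small Maf genes (*Mafg*+/-:*Mafk*+/-), compound KO embryos lacked *Mafg* and kept one intact *Mafk* allele (*Mafg*-/-:*Mafk*+/-), and double KO embryos lacked both (*Mafg*-/-:*Mafk*-/-). Every group, the control included, therefore carried mutant alleles of both genes, and wild-type lenses were not analysed here. There were 3 libraries in each of the 3 groups, each from RNA of 8 pooled lenses. Values are CPM, read counts scaled to a common total, that the authors had further normalized, called normalized CPM below.

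Cadherins are calcium-dependent transmembrane proteins that bind their like on the neighboring cell. On the inner side of the membrane the cadherin tail holds p120-catenin (*Ctnnd1*) and either beta-catenin (*Ctnnb1*) or plakoglobin (*Jup*), and beta-catenin in turn holds alpha-catenin (*Ctnna1*), which connects the junction to F-actin. Zonula occludens 1 (*Tjp1*) is a scaffold of tight junctions that also meets adherens junctions, and *Cadm1* is an adhesion molecule of the immunoglobulin superfamily. In the lens, E-cadherin (*Cdh1*) marks the epithelium, whereas N-cadherin (*Cdh2*) is present in both epithelium and fiber cells. Beta-catenin also acts in the nucleus as the partner of Tcf/Lef factors in Wnt signaling. Small Maf proteins, which include *Mafg* and *Mafk*, are basic leucine zipper factors without a transactivation domain of their own that bind DNA as homodimers or with partners such as Nrf2 and Bach1.

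The 250 bases before the canonical transcript start of *Cdh1* and of *Cadm1* are shown, since these 2 genes had the smallest p-values of the 8 in the comparison of double KO with control lenses. The sequences are from GRCm39, on the plus strand, 5′ to 3′, with starts from GENCODE M39, and capitals mark CACCTG or its reverse complement, the E-box bound by Snail and Zeb repressors of E-cadherin. The *Cdh1* stretch lies at chr8:107329733-107329982 and the *Cadm1* stretch at chr9:47441221-47441470.
Cdh1: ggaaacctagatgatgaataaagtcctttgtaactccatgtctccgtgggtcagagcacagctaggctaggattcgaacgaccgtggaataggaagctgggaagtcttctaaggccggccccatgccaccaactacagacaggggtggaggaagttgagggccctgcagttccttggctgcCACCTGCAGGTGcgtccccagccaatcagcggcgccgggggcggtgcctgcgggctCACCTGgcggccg
Cadm1: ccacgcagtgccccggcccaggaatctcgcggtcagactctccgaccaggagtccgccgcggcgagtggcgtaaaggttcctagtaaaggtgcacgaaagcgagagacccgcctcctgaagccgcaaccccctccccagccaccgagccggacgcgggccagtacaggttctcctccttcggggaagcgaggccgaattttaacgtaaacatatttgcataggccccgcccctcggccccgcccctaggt
The *Cdh1* stretch held 3 matches, of which a pair stood back to back from 69 to 58 bases before the start and the third from 13 to 8 bases before it. The canonical transcript starts a little inside the annotated *Cdh1* gene, so the third match lies within the annotated gene. The *Cadm1* stretch held 0. Among the 8 genes, 2 had a match (*Cdh1* and, once, *Cdh2*), and 17.7% of 21751 such stretches of all genes held this motif. TGACNNNGC, the core shared by sites of small Maf dimers with Nrf2-type partners, was found in 9.68% of all stretches, and TGACTCA, the AP-1-like core of the Maf recognition element, in 4.03%. Neither was found in the stretch of any of the 8 genes. All 3 motifs were searched on both strands, and TGACNNNGC and TGACTCA can overlap each other.

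Per kilobase of the canonical transcript, *Ctnnb1* had the highest level of the 8 genes in control lenses, 190 ± 9.5 normalized CPM per kilobase (SD, n = 3), followed by *Cdh2* at 98.9 ± 2.4 and *Tjp1* at 80.7 ± 5.1. *Cdh1* stood at 53.1 ± 1.4 on this scale, *Cadm1* at 50.5 ± 0.74 and *Ctnna1* at 48.8 ± 1.4, and the last 2 genes overlapped between libraries. *Ctnnd1* was at 13.4 ± 0.31 and *Jup* at 2.08 ± 0.43. Thus *Cdh1* lay just above *Cadm1* per length, *Cdh2* was the more abundant of the classical cadherins, and little *Jup* was measured. The transcript lengths used by the authors are not known here, so this order holds for the canonical lengths of the annotation.

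The knockouts were seen in the targeted genes: *Mafg* was at 112.9 to 134.5 normalized CPM in control libraries and at 10.1 to 26.2 in the 6 KO libraries, and *Mafk* at 5.2 to 6.3 in control and 0 to 0.6 in double KO libraries. Defining lens markers were present in all 9 libraries, with *Foxe3*, a factor of the lens epithelium, at 36 to 126.8 and *Mip*, the main membrane protein of fiber cells, at 3102.7 to 10197.1. One library stood apart. Compound KO replicate 1 had a mean Euclidean distance of 112 to the others of its group over log2 values, while the other compound KO libraries had 90.8 and 97.5 and no control or double KO library exceeded 76.3. In the same library the summed level of 12 lens epithelium markers was 1462.5, where control libraries had 3057.4 to 3480.9, and the 15 fiber markers in the table summed to 38770.3 against 107752.6 to 125168.8. Its sum of surface and corneal epithelium markers (7 of 12 in the table) was 308.9 against 4.2 to 6.3 in control libraries, with *Krt5* at 144.3 and *Krt15* at 110.3, and its sum of mesenchyme markers was 2518.3 against 31.9 to 78.6. Fold changes of the 8 genes between compound KO and control lenses are therefore given with and without this library, as are some counts.

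**Figure D1:**
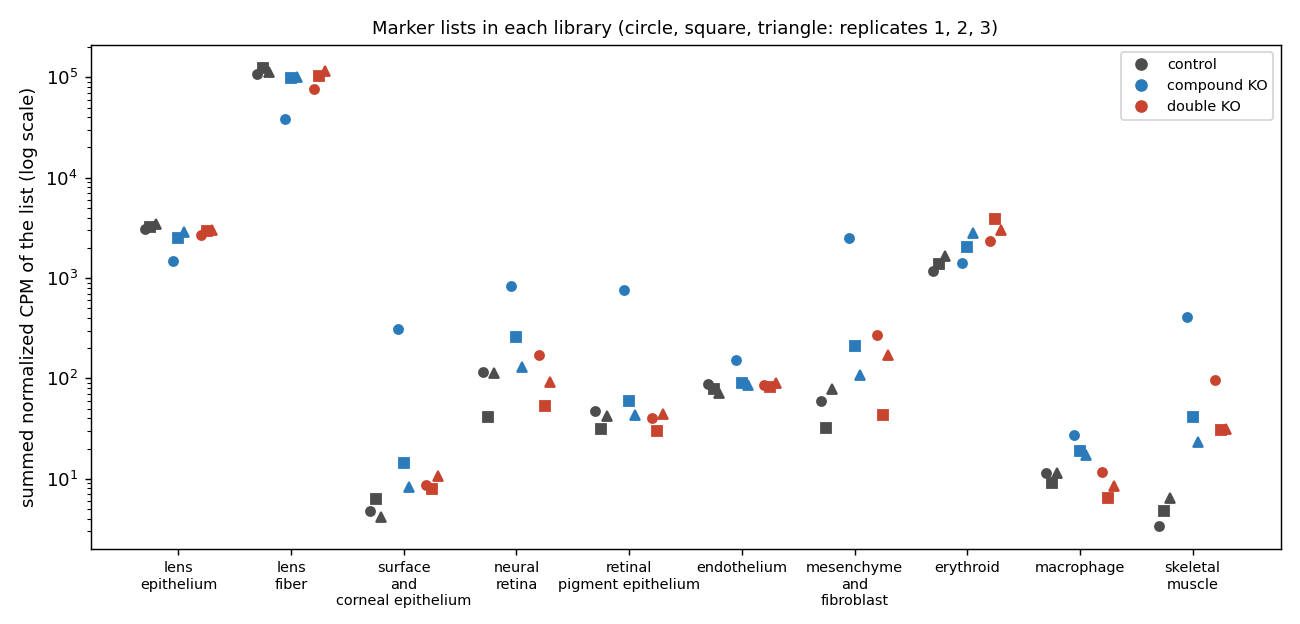
Summed normalized CPM of marker lists (log scale) in the 9 libraries, with 1 point per library and replicates 1, 2 and 3 as circle, square and triangle. Compound KO replicate 1 has the lowest lens sums (1462.5 for the epithelium) and the highest surface epithelium, mesenchyme, retina and pigment epithelium sums.

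E-cadherin had the smallest p of the 8 genes between double KO and control lenses when these 6 libraries were fitted alone, though not in a fit of all 9 libraries. *Cdh1* (GRCm39 chromosome 8, 107329941 to 107396880, 16 exons in the canonical transcript) was at 239.2, 228.2 and 238.4 normalized CPM in control libraries and at 170.2, 185.5 and 167.4 in double KO libraries. The groups did not overlap, and the highest double KO library remained well under the lowest control library. The level in double KO lenses differed by -25.8% (log2 fold change -0.43, SE 0.054, 95% interval -0.57 to -0.30). With an unadjusted p of 0.000277 *Cdh1* ranked 61st among 14122 genes tested with limma, and its Benjamini-Hochberg adjusted p was 0.0638, which missed the threshold of 0.05. The interval excluded a 1.5-fold reduction.

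Because *Cdh1* marks the epithelium, its level was also read against other genes listed as epithelial markers. These were *Cdk1*, *Epha2*, *Foxe3*, *Mab21l1*, *Maf*, *Npnt*, *Pax6*, *Pdgfra*, *Slc38a3*, *Sparc*, *Sulf1* and *Wnt7b*. In whole lenses, fewer epithelial cells and less transcript per cell cannot be told apart. The 12 other lens epithelium markers summed to 2666 to 3026.4 in double KO libraries, below the control range given above, and their mean log2 level differed by -0.14. Much of the sum is *Maf* and *Sparc*. *Sparc* was at 819.4 to 1270.6 in control and 547.4 to 810.2 in double KO libraries. *Maf* was at 1035.6 to 1198.3 and 998.5 to 1127.1, which overlapped. The sum without *Sparc* was not computed, so the lower sum need not hold for the other markers. Of the 12 markers, 9 had a negative log2 fold change, with a median of -0.10 against 0.011 over all genes tested. Limma called 1, the cell cycle kinase gene *Cdk1* (log2 fold change -1.19, adjusted p = 0.0375). Its low level weighs on the mean of the 12 markers used below, and values without *Cdk1* were not computed. The 15 fiber markers measured summed to 76060.3 to 114724.6 in double KO libraries, which overlapped with control. Of them, 10 had a negative log2 fold change, with a median of -0.16 and 0 called. At an unadjusted p of at most 0.05 by limma, 3 were lower and 2 higher, against 9.97% of all genes in either direction. Relative to the mean of the 12 markers in the same library, an alternative chosen after the data were seen, *Cdh1* differed by -0.30 on the log2 scale, with no overlap between groups (p = 0.1, exact permutation test, two-sided, the smallest that 3 against 3 libraries can give).

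N-cadherin did not show this difference. *Cdh2* (chromosome 18, 16700793 to 16942381) was at 472.9, 491.9 and 495.2 in control and at 459.2, 488.9 and 456.1 in double KO libraries. The groups overlapped (log2 fold change -0.056, 95% interval -0.17 to 0.058, limma adjusted p = 0.763), so that differences beyond -11.2% lay outside the interval. The balance of the cadherins, the log2 ratio of *Cdh2* to *Cdh1* within a library, does not depend on how that library was scaled. It was 0.98, 1.10 and 1.05 in control libraries, 1.43, 1.39 and 1.44 in double KO libraries and 1.89, 1.40 and 1.35 in compound KO libraries. All 6 KO libraries were above all 3 control libraries. The mean difference from control was 0.37 in double KO and 0.50 in compound KO lenses (p = 0.1 for each, exact permutation test, two-sided), and 0.33 in compound KO lenses without replicate 1.

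**Figure D2:**
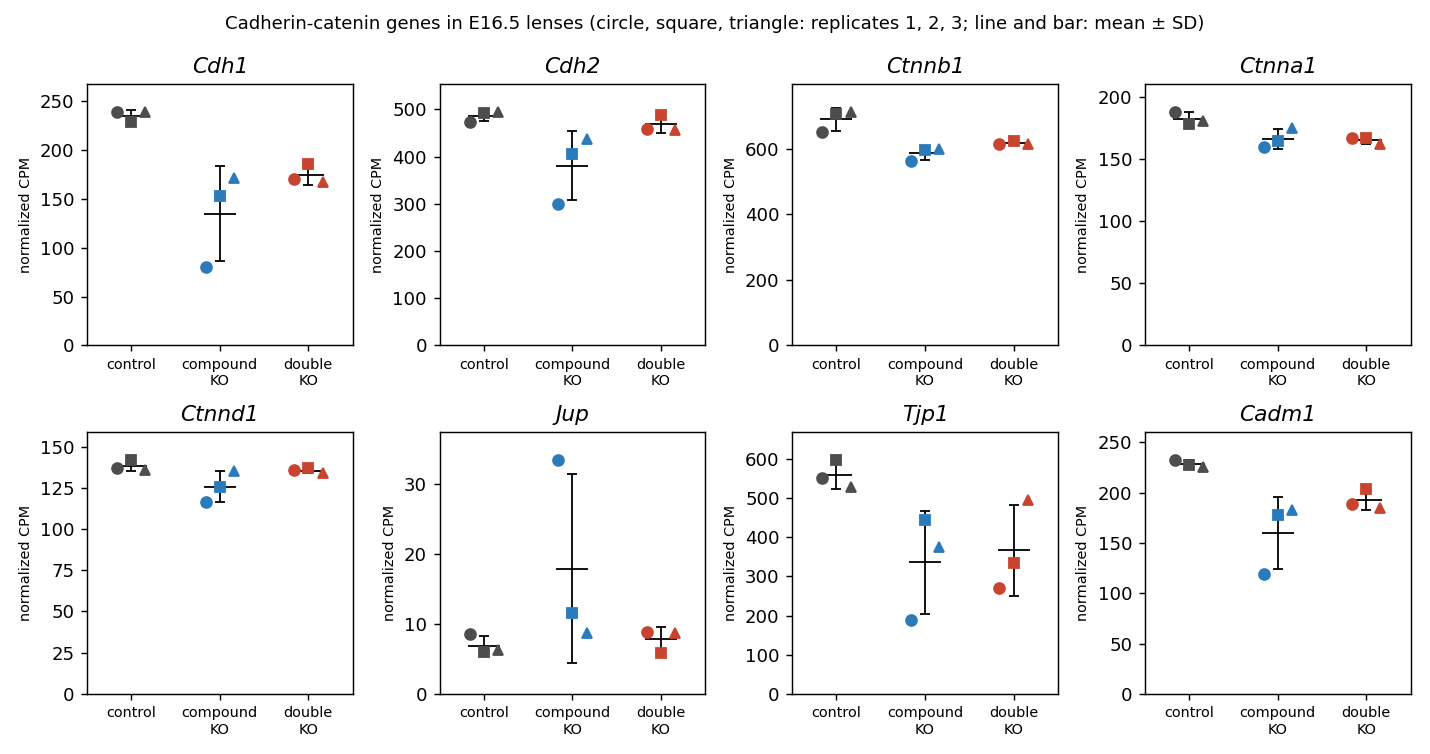
Normalized CPM (linear axis from 0, a separate scale in each panel) of the 8 genes in 3 control, 3 compound KO and 3 double KO libraries, with line and bar for mean ± SD. *Cdh1* and *Cadm1* of both KO groups lie below the control libraries, and compound KO replicate 1 (circle) is lowest for every gene but *Jup*, where it is highest at 33.4.

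Among the catenins the differences were small. *Ctnnb1* (chromosome 9, 120757422 to 120789579) was at 650.7, 707.7 and 713.4 in control and 615.1, 622.9 and 614.3 in double KO libraries. These did not overlap, and the mean differed by -0.16 on the log2 scale (SE 0.050, limma adjusted p = 0.379). *Ctnna1* (chromosome 18, 35226033 to 35387833) was at 188.2, 178.0 and 180.8 in control and 167.2, 167.1 and 161.9 in double KO libraries. Again all double KO libraries were lower, by 0.14 on the log2 scale (SE 0.042, limma adjusted p = 0.364). Relative to the 12 epithelium markers the differences were -0.025 for *Ctnnb1* and -0.0040 for *Ctnna1*. The groups overlapped on that scale. The mean of these markers, which itself differed by -0.14, includes the called gene *Cdk1* (log2 fold change -1.19). Values without *Cdk1* were not computed, so these small differences need not hold against the other markers. *Ctnnd1* (chromosome 2, 84425959 to 84489326) was at 137.4, 142.0 and 135.8 in control and 135.7, 137.2 and 134.1 in double KO libraries. The groups overlapped, with a log2 fold change of -0.028 and a 95% interval from -0.13 to 0.069 (limma adjusted p = 0.866).

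Plakoglobin, the relative of beta-catenin that serves both adherens junctions and desmosomes, was the least abundant of the 8. *Jup* (chromosome 11, 100259784 to 100291103) was at 8.5, 5.9 and 6.2 in control and at 8.9, 5.8 and 8.7 in double KO libraries, which overlapped (log2 fold change 0.16, 95% interval -0.36 to 0.67, limma adjusted p = 0.858). Compound KO libraries had 33.4, 11.6 and 8.7. The first of these is the library with high surface epithelium, mesenchyme and retina markers, whose part in the *Jup* value was not tested. The log2 ratio of *Jup* to *Ctnnb1* was -6.47 ± 0.32 in control, -6.16 ± 0.32 in double KO and -5.19 ± 1.02 in compound KO lenses (SD, n = 3). The difference between double KO and control was 0.32 (p = 0.2, exact permutation test, two-sided). That between compound KO and control was 1.29 (p = 0.1, exact permutation test), and 0.71 without compound KO replicate 1 (p = 0.2, exact permutation test).

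The scaffold gene *Tjp1* had the largest mean difference but also the widest spread. *Tjp1* (chromosome 7, 64945898 to 65177529) was at 552.4, 597.8 and 528.5 in control and at 271.3, 334.3 and 496.5 in double KO libraries. The groups did not overlap, but double KO replicate 3 came close to the control libraries and the other double KO libraries did not. The log2 fold change was -0.65 (SE 0.22, 95% interval -1.20 to -0.10, limma adjusted p = 0.417). It was -0.89 without double KO replicate 3 and -0.45 without double KO replicate 1. Of the 6 fits without 1 library, 1 (without double KO replicate 3) kept *Tjp1* at an unadjusted p of at most 0.05. Relative to the 12 epithelium markers it was -0.51, and the groups overlapped (p = 0.2, exact permutation test).

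*Cadm1* followed *Cdh1* at smaller size. *Cadm1* (chromosome 9, 47441471 to 47773576) was at 232.4, 228.0 and 225.8 in control and at 189.1, 203.7 and 185.1 in double KO libraries. All double KO libraries were lower, with a difference of -15.8% (log2 fold change -0.25, SE 0.050, limma adjusted p = 0.207). Relative to the epithelium markers the difference was -0.11 and the groups overlapped (p = 0.2, exact permutation test).

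Across the 8 genes in double KO against control lenses, 0 were called by limma when an adjusted p up to 0.05 was required together with a 1.5-fold change, the rule that called 51 of 14122 genes (0.361%), or at that adjusted p with any fold (0.389% of genes). At an unadjusted p of at most 0.05, 5 were lower (*Cdh1*, *Cadm1*, *Ctnna1*, *Ctnnb1* and *Tjp1*), where 5.18% of all genes were. With a 1.5-fold change as well, 1 remained, *Tjp1*, against 2.83% of all genes in either direction. The libraries did not overlap for the same 5 genes, all lower in double KO, against 8.04% of all genes. The median log2 fold change of the 8 was -0.15, against 0.011 over all genes. The unadjusted count of 5 was 3 without control replicate 1, 2 or 3 or double KO replicate 3, and 1 in a fit of all 9 libraries. These counts also depend on the scaling: with library size as the only scaling, which moves the median of all genes to 0.073, 2 genes (*Cdh1* and *Tjp1*) remained at the unadjusted threshold and 3 did not overlap. Relative to that median *Cdh1* was at -0.43, and at -0.44 as deposited. For these alternative fits and this scaling the shares of all genes were not computed, so the counts cannot be set against them.

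**Figure D3:**
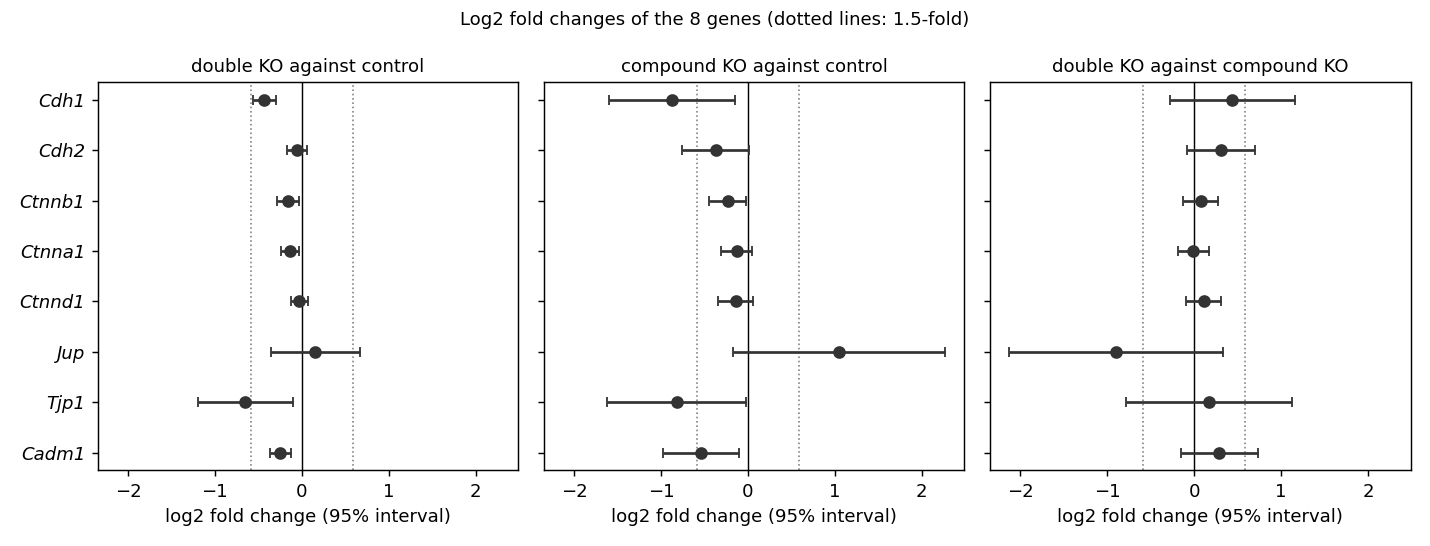
Log2 fold changes of the 8 genes with 95% intervals from limma in the 3 comparisons, on one shared axis, with dotted lines at 1.5-fold. In double KO against control the intervals of 5 genes lie wholly below 0, and the comparisons with compound KO lenses have wider intervals for most genes.

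Compound KO lenses were compared with control lenses to see the loss of *Mafg* with one intact *Mafk* allele. *Cdh1* was at 79.9, 153.4 and 171.0, below every control library (log2 fold change -0.87, SE 0.29, limma adjusted p = 0.481). *Cadm1* was at 119.1, 178.0 and 183.0, also below every control library (-0.54, SE 0.18, limma adjusted p = 0.481). *Tjp1* was at 188.9, 444.3 and 374.8 (-0.82, SE 0.32, limma adjusted p = 0.481). In all 3 genes replicate 1 was the lowest. *Ctnnb1* was at 561.4, 597.2 and 600.7, all below control (-0.23, SE 0.087, limma adjusted p = 0.481).

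The remaining compound KO values did not reach an unadjusted p of 0.05. *Cdh2* was at 299.4, 405.9 and 437.5 (log2 fold change -0.37, limma adjusted p = 0.481), *Ctnna1* at 159.7, 164.3 and 175.4 (-0.13) and *Ctnnd1* at 116.3, 125.7 and 135.4 (-0.14). *Jup* was at 33.4, 11.6 and 8.7, where control libraries had 5.9 to 8.5 (1.05, limma adjusted p = 0.481). Limma called 0 of 14348 genes here after adjustment (0%, with or without the 1.5-fold change), and all adjusted p-values of the 8 genes lay between 0.481 and 0.484. At an unadjusted p of at most 0.05, 4 of the 8 were lower, against 3.97% of all genes, and 2 (*Cdh1* and *Tjp1*) had a 1.5-fold change too, against 5.34%. The libraries of 7 genes did not overlap and were lower, against 11.7% of all genes. With library size as the only scaling this held for 4 genes, and the share of all genes was not computed.

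Without compound KO replicate 1, 5 of the 8 genes were lower at an unadjusted p of at most 0.05 (5.71% of all genes were), and 0 passed adjustment. *Cdh1* was then at -0.54 (SE 0.063, limma adjusted p = 0.125), *Cadm1* at -0.34 (adjusted p = 0.125) and *Tjp1* at -0.45 (adjusted p = 0.275). Hence the sizes were smaller without this library but the direction of these genes remained. *Ctnnb1* stood at -0.20, *Cdh2* at -0.21, *Ctnna1* at -0.10 and *Ctnnd1* at -0.084, while *Jup* was at 0.51. By contrast, each time 1 control library was left out, 0 of the 8 genes reached an unadjusted p of 0.05. The share of all genes in those fits was not computed. With library size as the only scaling, which moves the median of all genes to 0.24, *Ctnnb1* turned to 0.022, *Ctnna1* to 0.12 and *Ctnnd1* to 0.12, while *Cdh1* was at -0.62.

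Double KO and compound KO lenses, which differ by the second *Mafk* allele, were not told apart by these genes. Limma called 2 of 14402 genes between them (0.0139%, with or without the 1.5-fold change) and none of the 8, and 0 of the 8 had an unadjusted p of at most 0.05, against 4.87% of all genes and 3.06% with a 1.5-fold change. Their adjusted p-values ran from 0.665 to 0.967. *Cdh1* differed by 0.44 with a 95% interval from -0.28 to 1.17, so the data leave room for a sizable difference in either direction. Without compound KO replicate 1 the difference was 0.10 with an interval from -0.10 to 0.31. The difference of *Tjp1* was 0.17 with that library and -0.20 without it. *Cadm1*, *Cdh2* and *Ctnnb1* were higher in all double KO libraries than in any compound KO library, as were 8.17% of all genes. With library size as the only scaling 0 of the 8 genes were separated in this way, and the share of all genes was not computed.

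Over the 3 genotypes at once, limma's F-test on all 9 libraries gave an unadjusted p of at most 0.05 for 3 of the 8 genes, *Cadm1* (0.0254), *Ctnnb1* (0.0264) and *Cdh1* (0.0265), against 9.05% of 14578 genes. After adjustment 0 passed, with values from 0.515 to 0.529. The count was 6 without compound KO replicate 1 (smallest adjusted p 0.0534) and 6 without compound KO replicate 3 (0.277). It was 1 without control replicate 1 (0.622), 0 without control replicate 2 (0.701) and 0 without control replicate 3 (0.667). The share of all genes was not computed for the fits without a library, so these counts cannot be set against it.

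Related genes were read from lists of other cadherins, catenins and linkers, nectins, tight junction and polarity genes, desmosome genes, beta-catenin partners, Wnt target genes and *Cdh1* regulators. Of 162 listed genes, 111 were tested in double KO against control. One passed both thresholds, *Pygo2*, which encodes a nuclear cofactor that works with *Bcl9* and beta-catenin. At an unadjusted p of at most 0.05 there were 5 higher and 4 lower, together 8.11%, against 9.97% of all genes tested. In compound KO against control 13 were higher and 3 lower of 117, with 0 after adjustment, together 13.7% against 9.30% of all genes. Without compound KO replicate 1 these were 9 higher and 5 lower of 112, where 5.71% of all genes were lower. In double KO against compound KO 3 were higher and 8 lower of 118, again with 0 after adjustment, together 9.32% against 4.87% of all genes. Without that library they were 4 higher and 6 lower of 113, where 2.87% of all genes were lower. The shares of all genes that were higher in the fits without this library were not computed.

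*Pygo2* (chromosome 3, 89337521 to 89342435) was at 43.6, 43.0 and 37.7 in control, 58.7, 75.8 and 69.5 in compound KO and 69.5, 71.2 and 68.4 in double KO libraries. It rose 1.67-fold in double KO lenses (log2 fold change 0.74, SE 0.070, limma adjusted p = 0.0254). The call was lost, with adjusted p from 0.0506 to 0.108, when any 1 of the 6 libraries was left out. All 6 KO libraries were above the control libraries, and the share of all genes with this pattern was not computed.

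Among 12 other cadherins tested, *Cdh4*, which encodes R-cadherin, a close relative of N-cadherin, was the one past the adjusted threshold. *Cdh4* (chromosome 2, 179084201 to 179541166) was at 59.7, 56.9 and 55.0 in control, 65.5, 67.7 and 74.1 in compound KO and 87.5, 82.6 and 81.6 in double KO libraries. The 3 genotypes did not overlap, with compound KO in between, and the share of all genes with this pattern was not computed. With library size as the only scaling the difference between double KO and compound KO went from 0.28 to 0.093. In double KO against control lenses *Cdh4* was higher by 0.54 on the log2 scale (SE 0.054, limma adjusted p = 0.0284), which is 1.46-fold and so under the 1.5-fold rule. Leaving out any 1 of the 6 libraries gave adjusted p-values from 0.0700 to 0.132. *Cdh17*, a cadherin found mainly in gut, was at 2.0 to 3.0 in control and 0.9 to 1.4 in double KO libraries (log2 fold change -0.63, limma adjusted p = 0.308).

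At an unadjusted p of at most 0.05, 5.18% of all genes were lower. Of 25 other catenins and linkers, 1 was lower and 0 were higher at that threshold. This was *Actn1*, an actin cross-linker at adhesion sites, at 69.8 to 77.6 in control and 56.7 to 60.6 in double KO libraries (log2 fold change -0.32, limma adjusted p = 0.183). Of 6 desmosome genes, 2 were lower at that threshold, where 5.18% of all genes were. *Pkp2*, a plakophilin, was at 67.5 to 77.6 in control and 53.4 to 60.0 in double KO libraries (-0.31, limma adjusted p = 0.275), and *Perp*, a membrane protein of desmosomes, at 10.1 to 12.2 and 5.1 to 9.4 (-0.54, limma adjusted p = 0.495). The desmosome list had a median log2 fold change of -0.13, against 0.011 over all genes. None of these passed adjustment.

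From the list of nectins and related genes 8 were tested, and none of the *Nectin* genes was among them. Of these 8, 2 were higher at an unadjusted p of at most 0.05, *Ncam1* and *Pvr*. In either direction 9.97% of all genes reached this threshold. *Ncam1*, the neural cell adhesion molecule, was at 2.3, 15.2 and 3.1 in control, 76.8, 37.8 and 26.5 in compound KO and 28.6, 17.3 and 28.3 in double KO libraries (log2 fold change 2.06 in double KO, limma adjusted p = 0.379). Muscle markers stood at a sum of 3.4 to 6.4 in control, 23.2 to 410.7 in compound KO and 30.5 to 96.6 in double KO libraries, and their part in the *Ncam1* value was not tested. *Pvr* was at 3.1 to 4.2 in control and 4.7 to 4.9 in double KO libraries (0.34, limma adjusted p = 0.447).

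Of 19 tight junction and polarity genes tested, 0 had an unadjusted p of at most 0.05 by limma in double KO against control, with a median of 0.13. The 2 with the smallest p were *Cldn5*, a claudin of endothelium, at 5.6 to 6.0 in control and 7.0 to 15.2 in double KO libraries, and *Cgnl1*, paracingulin, at 153.5 to 170.9 and 146.2 to 154.8, which overlapped. *Tjp1* reached that threshold and no other tight junction gene tested did, but a difference between *Tjp1* and the list was not tested.

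The list of beta-catenin turnover and nuclear partners had 2 of 23 genes higher at an unadjusted p of at most 0.05, *Pygo2* and the casein kinase gene *Csnk1e* (0.13, limma adjusted p = 0.470), and 0 lower. In either direction 9.97% of all genes reached this threshold. Of 14 Wnt and beta-catenin target genes 0 reached it by limma, with 9 positive and 5 negative log2 fold changes and a median of 0.10. *Nkd1*, an inhibitor of Wnt signaling, was at 15.1, 20.0 and 7.4 in control and 22.7, 15.4 and 30.3 in double KO libraries, which overlapped, and *Lgr4*, a receptor for R-spondins, was at 117.0 to 129.4 and 102.0 to 121.0.

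**Figure D4:**
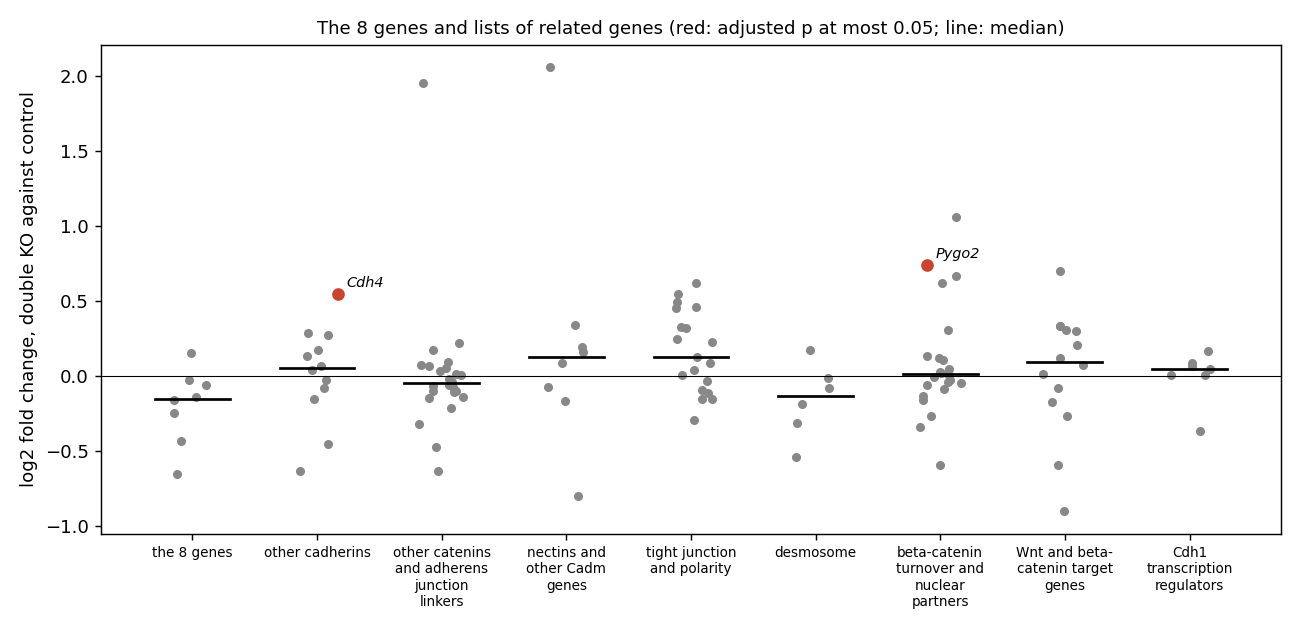
Log2 fold changes in double KO against control lenses of the 8 genes and of the genes tested in each related list, with 1 point per gene and a line at the median. *Cdh4* and *Pygo2* (red) are the points past the adjusted threshold, and the median of the 8 genes is -0.15.

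Of 18 listed regulators of *Cdh1* transcription, 12 were in the table and 7 were tested. Those tested were mostly low or level. Of the 7, 0 had an unadjusted p of at most 0.05 by limma in double KO against control. *Snai1*, at 0.1 to 0.5 in control and 0.5 to 0.6 in double KO libraries, was too low to be tested. *Zeb1*, a repressor that binds the E-box shown above, was at 39 to 41.5 in control and 41.7 to 42.1 in double KO libraries, and *Zeb2* at 75.2 to 82.7 and 78.5 to 82.8. Double KO libraries were just above control libraries for *Zeb1* and overlapped with them for *Zeb2*. *Snai2*, another E-box repressor, was at 0.9 to 1.3 in control and 1.2 to 1.7 in double KO libraries and reached 3.8 in compound KO replicate 1. *Tcf4*, a basic helix-loop-helix factor, was at 25.0 to 48.0 in control and 22.5 to 39.6 in double KO libraries, which overlapped.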

How the data were processed

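RNA-seq values of 9 libraries of mouse lens were grouped by the genotype in the labels, 3 per group. The authors trimmed reads, used HISAT2 to align strand-specific paired-end reads to mm39, StringTie for counts per transcript, and edgeR, in which entries of low CPM were dropped. Trimmomatic and Cufflinks are also named in the submitters' processing notes, without versions. The deposited values are a normalized signal: CPM multiplied by 1 factor per library, as read from totals of 728036 to 1131184 with a geometric mean of 1000012, rounded to 1 decimal. Sequencing depth is therefore unknown and no counting error is given.

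limma 3.58.1 (R 4.3.3) was fitted on log2(value + 1) of the genes with a symbol that reached 1 in 2 or more libraries, for each pair of groups, with an intensity trend, two-sided, and Benjamini-Hochberg adjustment over all genes tested. Fold changes are on the log2(value + 1) scale. A call required an adjusted p up to 0.05 and 1.5-fold, and an unadjusted p of at most 0.05 is given too, since the methods do not say whether p was adjusted. The study calls the libraries biological replicates, and the labels do not say which litters they came from. Entries without a symbol (6193, 25.0% to 35.5% of the totals) were not tested.

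The 8 genes and all lists were chosen with earlier results of these data known. Named in addition were genes called in any list, the 2 genes per list with the smallest p between double KO and control, and the 2 genes nearest to each of the 8, of which 1 is not reported here; some markers were named after their values were seen. Libraries that share a replicate number were not treated as pairs. Positions and lengths are from GENCODE M39 on GRCm39.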

Additional observations from a re-analysis of the deposited data

How the results depend on the processing

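None of the 8 genes was called in any comparison under any alternative, which were upper quartile scaling, scaling by library size only, no filter on low values, the requirement of 1 or more in every library, a pseudocount of 0.1, summed entries of one symbol, 1 fit of all 9 libraries, a replicate block and leaving out each library. The number of all genes called between double KO and control was 21 in the fit of all 9 libraries, 10 with the replicate block and 22 to 47 when 1 library was left out (22 without control replicate 3, 27 without double KO replicate 1 and 33 without control replicate 1). Between compound KO and control it was 2 in the fit of all 9 and 0 to 13 when 1 library was left out (13 without compound KO replicate 1). Between double KO and compound KO it was 0 when 1 or more was required in every library, 5 in the fit of all 9, 0 with the replicate block, 1 with a pseudocount of 0.1 and 1 to 6 when 1 library was left out. In double KO against control, *Cdh1* stayed between -0.48 and -0.40 when 1 library was left out, with limma adjusted p from 0.0586 to 0.239; the adjusted p was 0.264 with library size as the only scaling, 0.357 with the replicate block and 1 in the fit of all 9. In double KO against compound KO, the count of the 8 genes at an unadjusted p of at most 0.05 was 2 without compound KO replicate 3. The share of all genes in that fit was not computed.

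*Cdh4* had an adjusted p of 0.167 and *Pygo2* of 0.167 with the replicate block, *Cdh4* of 0.0989 with library size as the only scaling, and *Pygo2* of 0.0671 in the fit of all 9; running these 2 genes through the alternatives was chosen after seeing the data. Correlations of same-numbered libraries, once group means were taken out, ran from -0.11 to 0.22. They were not set against those of other library pairs and cannot show whether same-numbered libraries share a litter or batch. With the replicate block 5 of the 8 genes kept an unadjusted p of at most 0.05 between double KO and control. The share of all genes with the block was not computed.

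Signs of small differences turned in several cases. With library size as the only scaling, the log2 fold change was 0.014 for *Cdh2* and 0.041 for *Ctnnd1* (double KO against control), 0.022 for *Ctnnb1*, 0.12 for *Ctnna1* and 0.12 for *Ctnnd1* (compound KO against control), and -0.11 for *Ctnnb1*, -0.075 for *Ctnnd1*, -0.015 for *Tjp1* and -0.14 for *Pygo2* (double KO against compound KO). With upper quartile scaling *Ctnna1* was 0.0092 in the last comparison, where leaving out 1 library gave -0.037 to 0.030 for *Ctnna1*, -0.20 to 0.42 for *Tjp1*, -0.058 to 0.12 for *Pygo2* and -0.23 to 0.046 for the ratio of *Cdh2* to *Cdh1*. Relative to the 12 lens epithelium markers, added after seeing the data, *Cdh2* was 0.079 and 0.0072 (double KO and compound KO against control), *Ctnnd1* 0.11 and 0.24, *Ctnnb1* 0.14 and *Ctnna1* 0.25 (compound KO against control), and in double KO against compound KO *Ctnnb1* was -0.17, *Ctnnd1* -0.13 and *Tjp1* -0.071. The cause was not tested. Depth is unknown, so the low genes *Jup* and *Cdh17* carry a counting error that is not given.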

Other observations

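Over the 9 libraries, the gene whose log2 level ran closest to that of *Cdh1*, of 8150 genes with a mean of at least 10, was *Cadm1* (Pearson's r = 0.996), and *Cdh1* was in turn the closest to *Cadm1*. The next were *Cct3*, a subunit of a cytosolic chaperonin, for *Cdh1* (0.989) and *Ncoa7*, a nuclear receptor coactivator, for *Cadm1* (0.994). *Cdh2* ran closest to *Gtpbp4* (0.993) and *Dnajc13* (0.993), *Ctnnb1* to *Nsfl1c* (0.977) and *Prkar1a* (0.969), *Ctnna1* to *Rps14* (0.962) and *Cript* (0.946), and *Ctnnd1* to *Foxo1* (0.983) and *Las1l* (0.976). *Jup* ran closest to *Kif21b* (0.990) and *Brip1os* (0.989). Among the genes near *Tjp1* was *Timp3* (0.965). These values describe 9 libraries of 3 genotypes, which include the compound KO library that is the lowest for 7 of the 8 genes and the highest for *Jup*, and no test was made of them.

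The other marker lists gave these sums in control, compound KO and double KO libraries. Neural retina markers were at 41.7 to 115.1, 131.2 to 827.8 and 52.5 to 171.4, and retinal pigment epithelium markers at 31.4 to 47, 43.5 to 759.2 and 29.6 to 44.3. Endothelium markers were at 72.1 to 87.4, 85.8 to 153.2 and 81.9 to 89.5, and macrophage markers at 9 to 11.5, 17.4 to 27 and 6.4 to 11.7. Erythroid markers, the globins among them, were at 1171.3 to 1640.2, 1426.2 to 2839.3 and 2340.1 to 3879.1, with no overlap between control and double KO libraries. Mesenchyme markers in double KO libraries were at 42.7 to 272.7, and surface and corneal epithelium markers at 7.9 to 10.6.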
